A study of Mus musculus with 32 samples.

Results

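Tibialis anterior muscle of old mice was compared with that of young mice 35 days after barium chloride injury, which the labels write as BaCl. The comparison took the 4 libraries that the count table names as old, vehicle and day 35 against the 4 named as young, vehicle and day 35, and it covered every gene measured. These were 8 of the 32 libraries of the series. All mice were C57BL/6J, an inbred laboratory strain, and both groups had been injured and given vehicle, the carrier without drug. The other groups were young and old vehicle muscle without injury, the same at day 7, and old muscle given BI01, a senolytic compound, at both days. The labels used here give the ages only as young and old, and they give no sex, time of collection or number of animals. Nor do they state whether 2 libraries of a group can share an animal, and the p-values therefore measure only the spread among the libraries, part of which may be technical.

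Barium chloride destroys muscle fibres and leaves the resident stem cells, the satellite cells, in place. These cells divide, fuse and form new fibres, which pass through embryonic and neonatal myosins before they make adult ones, while macrophages, fibroblasts and vessels rebuild the tissue around them. Regeneration is known to be slower in old mice, and old muscle is known for low-grade inflammation, fibrosis and loss of innervation. Comparing the ages late after injury shows how the RNA of rebuilt muscle differs with age. In bulk tissue, fewer cells of a type and less RNA per cell cannot be told apart.

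The 8 libraries held 15141390 to 24356966 counts in young muscle and 16077532 to 19820190 in old muscle. Mitochondrially encoded genes took 10.05% to 12.06% and 9.892% to 15.03% of them. Both groups were fast skeletal muscle by their myosins. Per kilobase of gene length as deposited, Myh4, the heavy chain of the fastest fibres, stood at 14010 CPM (counts scaled to a fixed total and for library composition) in young and 12670 in old muscle, while Myh1, of another fast fibre type, stood at 1023 and 904.7. Myh7, the slow heavy chain, had 0 counts over the young and 2 over the old libraries. Xist, transcribed from an inactive X chromosome, had 5 counts over the young and 1 over the old libraries, and Ddx3y, on the Y chromosome, stood at 147 ± 17.4 and 117 ± 8.18 CPM (SD, n = 4). The first principal component of the 8 libraries held 28.4% of the variance and separated the ages.

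Age differences ran in both directions, and genes of fuel choice, stress hormone response and protein breakdown were among those lower in old muscle. Pdk4 (chr6:5483351-5496309 in the deposited table), the kinase that shuts off pyruvate dehydrogenase and so favours fat as fuel, was 30.3-fold lower. Tfrc (chr16:32608920-32632794), the receptor that takes up iron bound to transferrin, was 9.9-fold higher in old muscle, and Krt8 (chr15:101996698-102004482), a keratin of simple epithelia, was 25-fold higher. Of 17121 genes tested, 601 (3.51%) were called at a Benjamini-Hochberg adjusted p under 0.05 by edgeR's quasi-likelihood test, 295 (1.72%) higher and 306 (1.79%) lower in old muscle. Counts of called members in the gene lists below are to be read beside these shares. The called genes had a median log2 fold change of 1.02 when higher and -0.896 when lower, beside 0.0121 over all genes tested. More than 2-fold differences were found in 157 of the higher and 121 of the lower genes, and more than 4-fold ones in 31 and 32. A fit of the 8 libraries alone, which estimates the spread from them only, called 1922 genes, 932 higher and 990 lower. Leaving out single libraries gave 335 to 452 calls. The fewest were 335 without young library 2, 377 without old library 7, 379 without old library 8 and 380 without young library 1. The call held with each of the 8 libraries left out for 248 genes, 109 higher and 139 lower. Of the 601 called genes, 585 (97.3%) had no overlap between the old and the young libraries, beside 16.5% of all genes tested. The largest differences were also chosen for it. A lack of overlap in a called gene below is thus a description and adds little to the call.

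**Figure D1:**
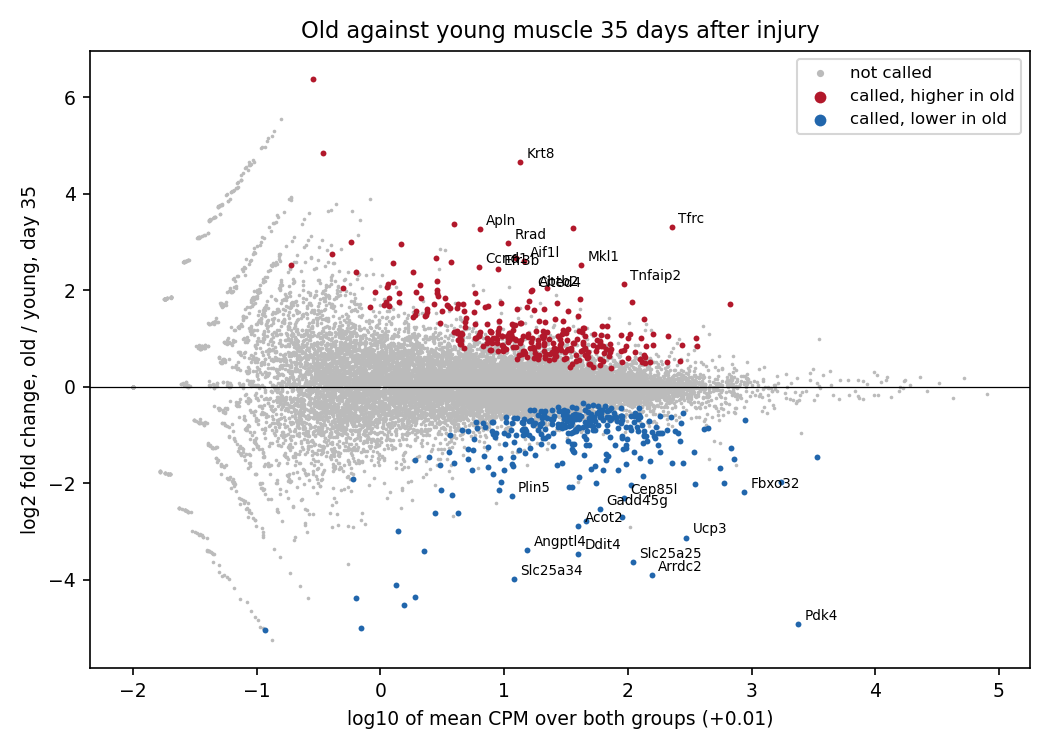
Each point is 1 of the 17121 genes tested, with the log10 of its mean CPM over the 8 libraries on the x axis and the log2 fold change of old over young muscle at day 35 on the y axis. Red points are the 295 genes called higher and blue points the 306 called lower, and the names mark the largest differences each way by the naming rule, from Krt8 at 4.65 to Pdk4 at -4.92.

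Several genes of mitochondrial fuel use were lower in old muscle. In old libraries 6, 7, 8 and 9, Pdk4 stood at 60.3, 180, 225 and 148 CPM, and in young libraries 1, 2, 3 and 4 at 6127, 6145, 3209 and 3087. Every young library was above every old one by an order of magnitude, and young libraries 1 and 2 were the highest. The log2 fold change was -4.92 ± 0.67 (SE), with an adjusted p of 5.03e-05. Ucp3, an uncoupling protein of the inner mitochondrial membrane, was measured at 42.3, 65.8, 78.1 and 57 CPM in old and 520, 668, 510 and 432 in young libraries (log2 fold change -3.13, adjusted p = 0.000275). Acot2, which splits acyl-CoA in mitochondria, was at 6.42, 11.1, 9.85 and 10.4 CPM against 90.9, 91.7, 52 and 46.4 (-2.89, adjusted p = 1.9e-07). No old library reached a young one in either gene. Acot1, its cytosolic relative, was at 0.143 ± 0.143 and 2.5 ± 1.46 CPM (-4.11, or -4.78 without old library 9), and because the 2 genes are close paralogs their reads may have been split between them.

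A pair of mitochondrial carriers, an inhibitor of a lipase and a lipid droplet protein were also lower. Slc25a34, an orphan mitochondrial carrier, was at 1.33, 2.09, 1.27 and 0.891 CPM in old and 37.1, 28.2, 13 and 11.6 in young libraries, a log2 fold change of -3.99 (adjusted p = 0.00185). Slc25a25, the carrier that exchanges ATP-magnesium for phosphate, was at 16.1, 13.5, 18.4 and 17 CPM in old libraries and spread from 57.3 to 435 in young ones. The young values of Slc25a25 were uneven, with library 3 the highest, and its log2 fold change of -3.63 was -2.93 without that library. Angptl4, a secreted inhibitor of lipoprotein lipase, was 10.5-fold lower in old muscle (-3.39, or -4.00 without old library 7), and Plin5, which coats lipid droplets beside mitochondria, was 4.84-fold lower.

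Of 25 genes listed for fatty acid use, 6 were called lower and 1 higher, with a median log2 fold change of -0.497. The 6 were Pdk4, Acot1, Acot2, Ucp3, Plin5 and Angptl4. Enzymes of fat oxidation and the transferases that bring fatty acids into mitochondria were not called. Among the enzymes, Acadl stood at -0.69 (adjusted p = 0.0678, and 0.0356 by DESeq2), Hadha at -0.21 and Acadm at -0.08, and among the transferases Cpt1b stood at -0.75 and Cpt2 at -0.31. In all, 20 of the 25 log2 fold changes were below 0, and 11 genes had every old library below every young one and 3 the reverse, beside 8.18% and 8.34% of all genes tested. The fit of the 8 libraries alone called 11 of the 25 lower and 3 higher. The member called higher was Ppargc1b, a coactivator of mitochondrial genes, at 14, 16.8, 13.9 and 21.8 CPM in old and 6.07, 5.69, 9.89 and 5.64 in young libraries. Its call (adjusted p = 0.022) was lost without old library 7 (0.0511) or 9 (0.0805) or young library 1 (0.0741), 2 (0.089) or 4 (0.0726). The summed level of the list was 2180 to 2530 CPM in old and 6050 to 9780 in young libraries, and Pdk4 had the highest mean of its members in young muscle. Of 35 genes of oxidative phosphorylation, 0 were called (median 0.063), and of 13 mitochondrially encoded genes also 0 (0.0462). Of 24 genes of glycolysis and glycogen, 1 was called. It was Fbp2, the muscle form of fructose bisphosphatase, which was lower at 20.7 ± 4.04 against 52.7 ± 6.1 CPM, and its call was lost without old library 8 (adjusted p = 0.0908), old library 9 (0.0549) or young library 4 (0.0598).

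Genes that glucocorticoid hormones are known to raise were lower in old muscle. Of 16 tested members of the list of glucocorticoid targets and metallothioneins, 11 (68.8%) were called lower and 0 higher. The shares over all genes tested were 1.79% and 1.72%, and the list's median was -1.55. The list shares Pdk4 and Angptl4 with the fuel genes, Ddit4 with the atrophy genes and Per1 with the clock genes below. Tsc22d3, a leucine zipper protein that mediates anti-inflammatory effects of these hormones, was at 154, 147, 135 and 129 CPM in old and 371, 354, 463 and 494 in young libraries. The values were tight within each age and did not overlap, and the log2 fold change was -1.57 ± 0.22 (SE), adjusted p = 5.08e-05. Arrdc2, an arrestin-like protein, was at 11.9, 16.2, 10.1 and 40.7 CPM against 243, 234, 352 and 348. Its log2 fold change of -3.90 was -4.53 without old library 9, the highest of the old libraries. Glul, which makes glutamine, was 3.21-fold lower (adjusted p = 0.00291). Fkbp5, a chaperone of the hormone receptor, was at 44.8, 48.6, 48.2 and 48.6 CPM against 163, 137, 76.9 and 63.3 (-1.21, adjusted p = 0.0104). Its young values fell into a higher and a lower pair, and without young library 1 the adjusted p was 0.0698. The metallothionein Mt1 did not pass the test (10.9 and 16.5 CPM). With single libraries left out, 8 to 11 members of the list were called.

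Fbxo32 and Trim63, ligases that tag muscle protein for breakdown, were lower as well. Fbxo32, or atrogin-1, was at 255, 423, 300 and 283 CPM in old and 1990, 1748, 1015 and 966 in young libraries (log2 fold change -2.18, adjusted p = 0.00471). Trim63, or MuRF1, was at 206, 321, 210 and 222 CPM against 1397, 1091, 626 and 698 (-1.99, adjusted p = 0.00597). In both ligases the old library 7 was the highest of its group and still lay below every young library. Of 20 genes listed for atrophy, 10 (50%) were called lower and 0 higher, beside 1.79% and 1.72% of all genes tested. The list's median was -0.796, and 19 of 20 log2 fold changes were below 0. The other named members were Gabarapl1 of the autophagosome (3.34-fold lower), Cblb and Fbxo21, a ubiquitin ligase and a ligase subunit (2.98-fold and 2.34-fold lower), and Ddit4, an inhibitor of mTORC1 signalling (11-fold lower). The ubiquitin ligases Fbxo30 and Traf6 of the same list were not called, at log2 fold changes of -0.04 and -0.08 (adjusted p = 0.98 and 0.889). Foxo3, a transcription factor that drives many of these genes, was called lower at 32.4 against 61.3 CPM (adjusted p = 0.0408). Foxo3 stayed called without young library 4 and lost its call without any 1 of the other libraries (0.0785 to 0.144). Foxo1 was at 20.8 and 25.3 CPM and Mstn, which encodes the growth inhibitor myostatin, at 23.8 and 24.7, neither called. Leaving out single libraries gave 6 to 10 called members.

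**Figure D2:**
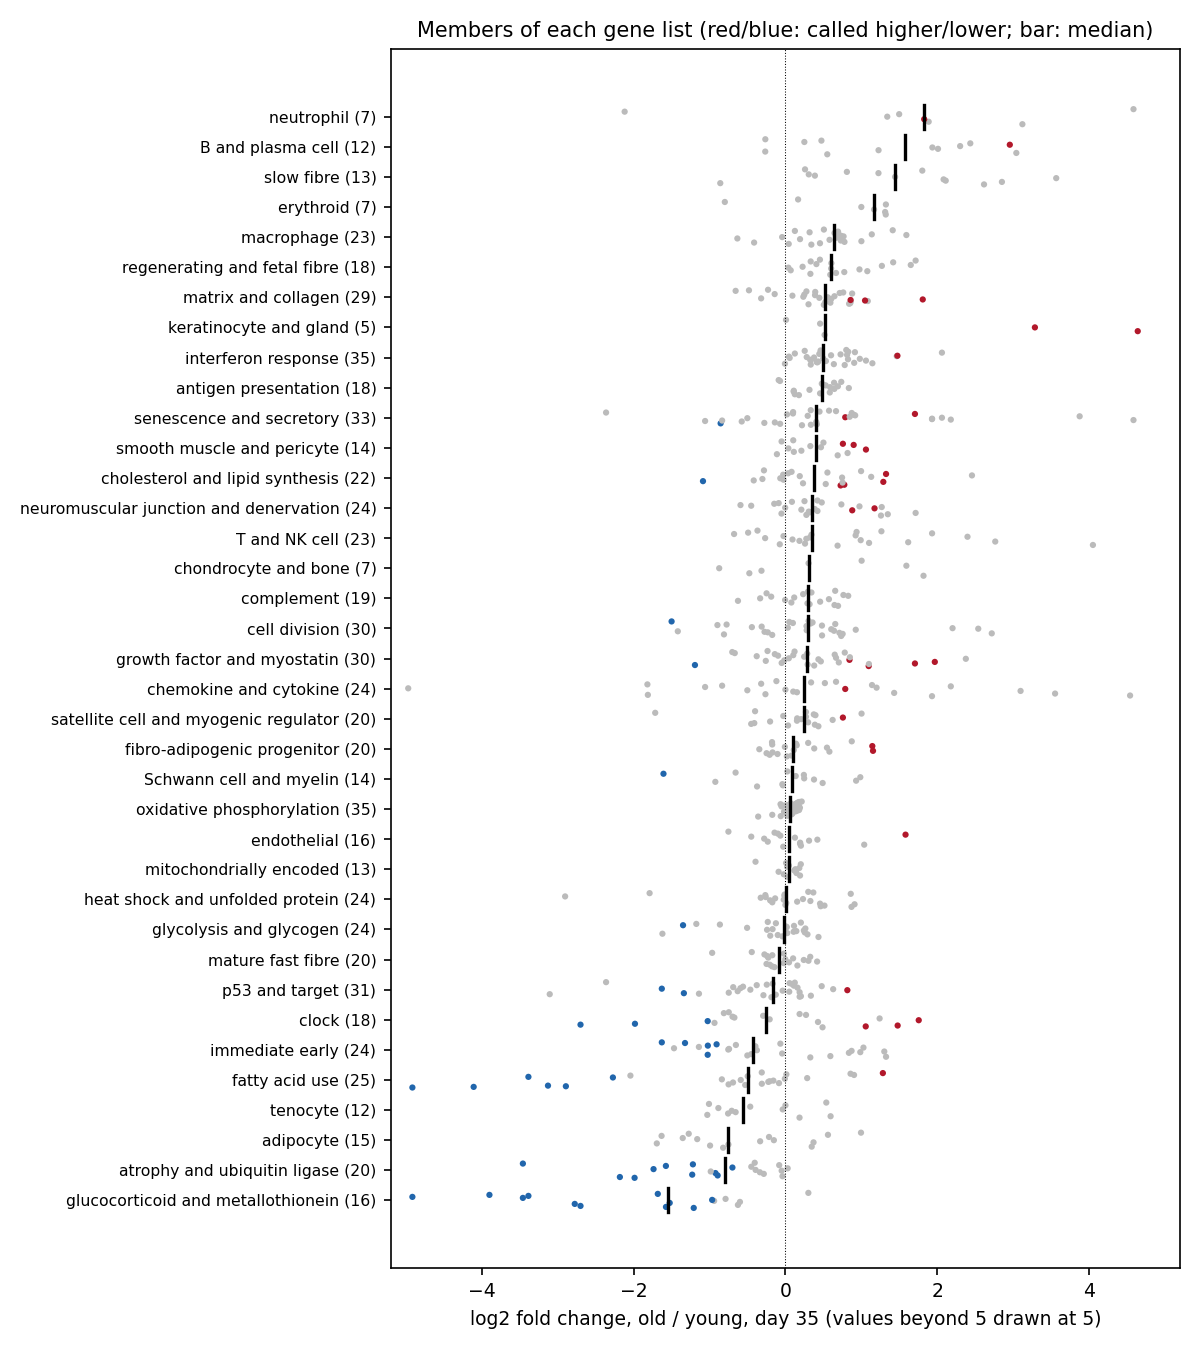
Each point is 1 member of the gene list named on the y axis (number tested in parentheses), placed at its log2 fold change of old over young muscle at day 35 on the x axis. Red and blue points are members called higher and lower, grey points were not called, and the black bar is the list's median, which runs from -1.55 for glucocorticoid and metallothionein genes to 1.83 for neutrophil genes.

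Promoter sequences were examined because the atrophy genes moved together and are known targets of FoxO factors. RefSeq promoter windows on GRCm38.p6, covering 250 bases before and 50 after a gene's start, were found for 463 of the 601 called genes. The windows of 3 genes called lower whose sequence holds the FoxO motif GTAAACA, read on either strand, are shown, with the motif in capitals (as its reverse complement) and all other bases in lower case. Trim63 is the ligase above, Sesn1 is a sestrin that restrains mTORC1, and Tmem140 is a membrane protein with 2 matches. Trim63 lies at chr4:134314870-134315169, Sesn1 at chr10:41810324-41810623 and Tmem140 at chr6:34862896-34863195, all on the plus strand. For Sesn1 this is 1 of 2 windows, and the other has no match.
Trim63: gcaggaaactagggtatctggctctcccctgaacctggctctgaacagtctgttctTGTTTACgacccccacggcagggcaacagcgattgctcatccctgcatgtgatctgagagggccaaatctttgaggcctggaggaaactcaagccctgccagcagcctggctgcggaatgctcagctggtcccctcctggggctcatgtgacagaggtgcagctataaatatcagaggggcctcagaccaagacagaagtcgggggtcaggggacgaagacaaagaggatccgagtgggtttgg
Sesn1: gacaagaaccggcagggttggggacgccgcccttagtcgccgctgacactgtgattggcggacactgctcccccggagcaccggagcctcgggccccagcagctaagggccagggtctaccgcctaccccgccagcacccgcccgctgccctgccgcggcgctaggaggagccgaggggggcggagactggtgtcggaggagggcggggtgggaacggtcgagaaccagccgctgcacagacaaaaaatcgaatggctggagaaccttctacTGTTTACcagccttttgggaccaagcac
Tmem140: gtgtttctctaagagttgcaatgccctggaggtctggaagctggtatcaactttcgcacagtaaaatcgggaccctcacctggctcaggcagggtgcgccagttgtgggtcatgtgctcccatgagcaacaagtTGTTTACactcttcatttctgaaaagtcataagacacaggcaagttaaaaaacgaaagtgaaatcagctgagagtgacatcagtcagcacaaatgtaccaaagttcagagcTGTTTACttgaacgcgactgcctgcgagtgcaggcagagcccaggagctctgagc
The motif was found in 24 of the 307 windows of genes called lower (7.82%), in 7 of the 308 windows of genes called higher (2.27%), in 2.55% of windows of genes tested and not called, and in 3.65% of all 32851 windows. The 24 windows belonged to 24 genes, among them Klf9 and Pnpla7. Of the other called atrophy genes named above, Gabarapl1, Cblb, Fbxo21, Ddit4 and Foxo3 had windows without a match. Sesn1 and Tmem140 are not on the atrophy list. Pdk4 had no match in its window, and no window was found for Fbxo32, so its promoter was not searched. A match describes the letters of the window and no more.

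The E-box CACGTG, which binds CLOCK and its partner as well as other factors, was in 41 of the windows of lower genes (13.4%), 7.14% of those of higher genes, 9.32% of those not called and 7.15% of all. One of the lower genes was the clock gene Per1, whose window at chr11:69098699-69098998 on the plus strand is shown with the E-box in capitals because its RNA differed between the ages. It is 1 of 2 windows of the gene, and the other has no match. The windows of the called clock genes Clock, Cry2 and Nr1d1 hold no E-box.
Per1: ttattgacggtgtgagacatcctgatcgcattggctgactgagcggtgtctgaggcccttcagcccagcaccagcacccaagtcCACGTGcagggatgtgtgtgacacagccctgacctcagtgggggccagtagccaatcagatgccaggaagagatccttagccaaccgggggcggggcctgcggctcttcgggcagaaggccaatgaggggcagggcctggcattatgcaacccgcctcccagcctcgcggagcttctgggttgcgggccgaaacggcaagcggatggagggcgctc
The cyclic AMP response element TGACGTCA was in 2.28% of windows of lower genes, 1.62% of higher ones, 2.76% of those not called and 1.79% of all. The motif TAGGTCA, bound by ROR and REV-ERB receptors, was in 0.977%, 2.27%, 1.92% and 2.61%.

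Genes of the circadian clock differed in both directions. Nr1d1, which encodes the repressor REV-ERB alpha, was at 160, 169, 155 and 187 CPM in old and 66.3, 57.3, 31.7 and 42.8 in young libraries. The lowest old library stood above the highest young one by more than 2-fold, and the log2 fold change was 1.76 (adjusted p = 0.00334). Per2, another repressor of the clock, was at 3.75, 2.58, 3.52 and 5.51 CPM against 9.75, 14.4, 19.7 and 16.7 (-1.98, adjusted p = 0.000225). Clock, a member of the activating dimer, was at 59.2 to 61.6 CPM in old and 25.6 to 31.3 in young libraries (1.06, adjusted p = 0.00217), whereas its partner Arntl was at 31.4 ± 6.67 and 22.4 ± 5.67 and was not called. Cry2, also a repressor, was 2.04-fold lower in old muscle.

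Per1 was at 9.72, 12.9, 13.2 and 60.2 CPM in old and 133, 137, 217 and 135 in young libraries. Old library 9 and young library 3 stood apart from their groups. The log2 fold change of -2.70 was -3.70 without old library 9, and the call (adjusted p = 0.0144) was lost without old library 6 (0.0568), old library 7 (0.0591) or old library 8 (0.0616), and in the fit of the 8 libraries alone (0.0537). In all, 3 of 18 clock genes were called higher and 3 lower, beside 1.72% and 1.79% of all genes tested. The list's median was -0.251. The clock, glucocorticoid, fuel and atrophy lists all held called genes in the same comparison. Whether they varied together from library to library, and what part the clock genes had in the other results, was not tested.

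**Figure D3:**
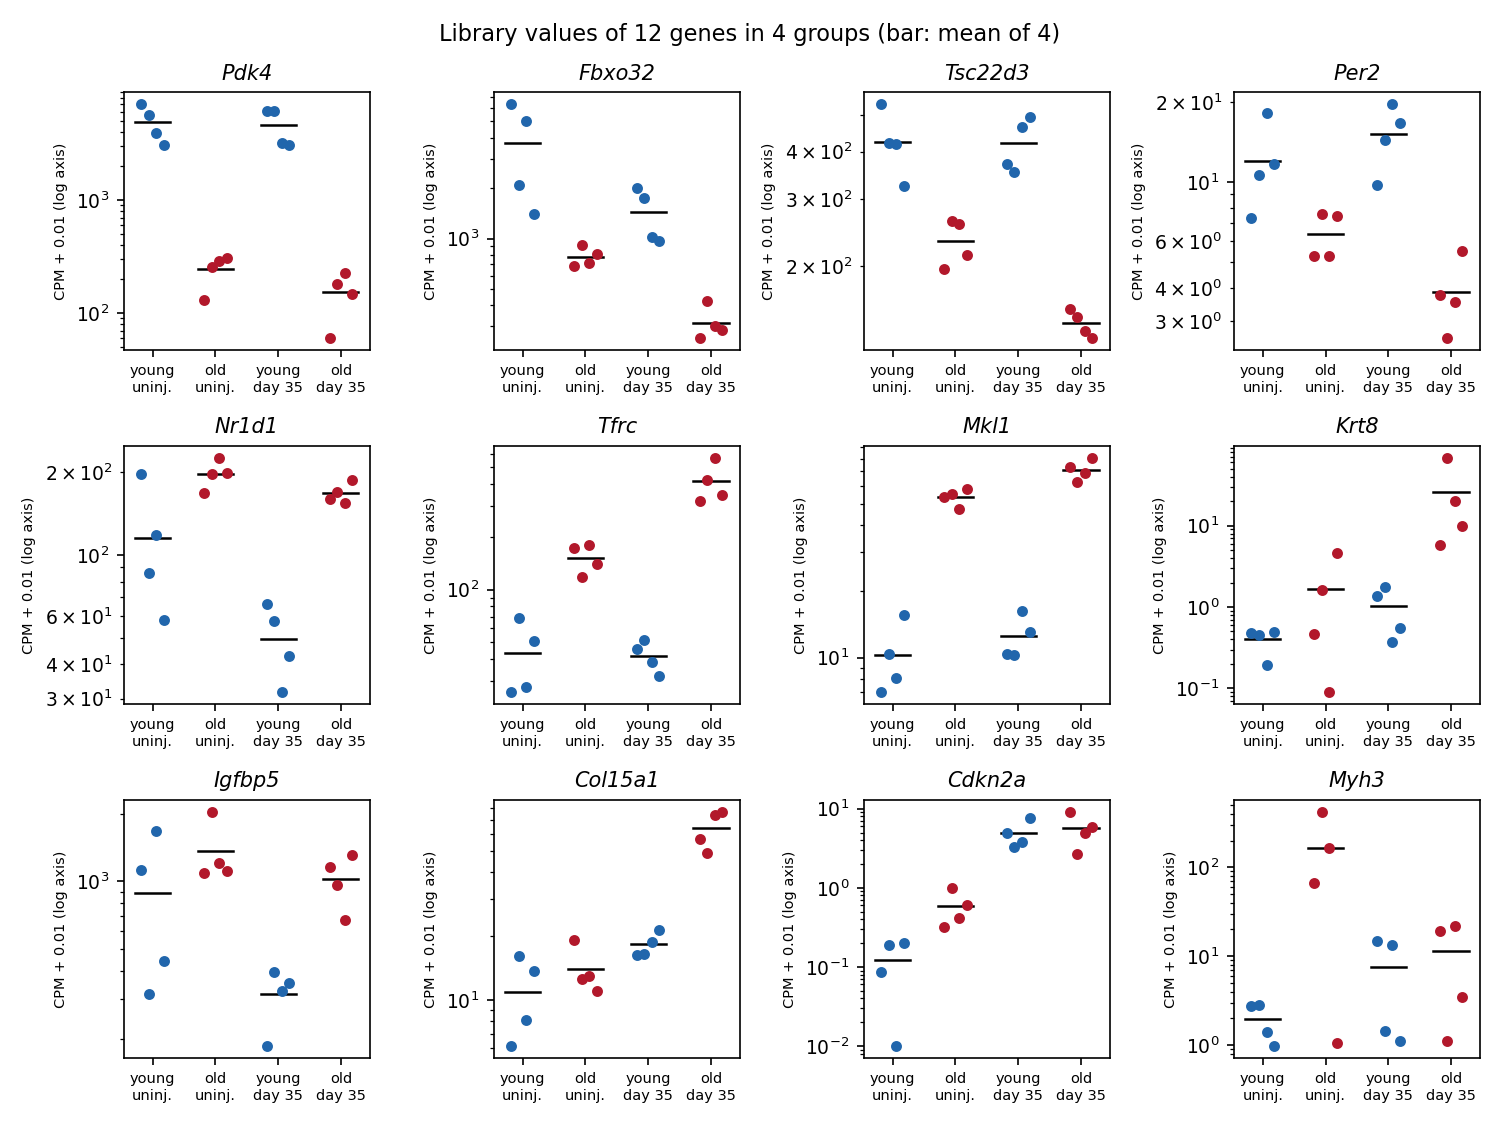
CPM on a log axis (0.01 added) of 12 genes in single libraries of young (blue) and old (red) vehicle muscle, uninjured and at day 35, with a bar at the mean of 4. At day 35 the ages do not overlap in the first 10 panels, from Pdk4 to Col15a1, and overlap for Cdkn2a and Myh3.

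Immediate early genes, which respond within minutes to stimuli and handling, were lower where called. Of 24 such genes, 5 (20.8%) were called lower and 0 higher, beside 1.79% and 1.72% of all genes tested. The 5 were Jun, Btg2, Zfp36, Klf2 and Klf6, and the list's median was -0.423, or -0.154 without young library 3. Jun, a subunit of the AP-1 factor, was 2.04-fold lower and Btg2, an antiproliferative p53 target, 3.1-fold lower. Fos, the partner of Jun, was at 4.42 ± 2.7 CPM in old and 3.52 ± 0.901 in young muscle and was not called. The call of Zfp36, which degrades cytokine RNA, was lost without old library 6 (adjusted p = 0.0528), 8 (0.117) or 9 (0.0651) or young library 1 (0.055) or 3 (0.119). That of Klf2, a zinc finger factor, was lost without any 1 of the old libraries (0.0503 to 0.112) or young library 3 (0.152), and that of Klf6, of the same family, without old library 6 (0.0995) or 8 (0.103) or young library 2 (0.059) or 3 (0.101). Left-out libraries gave 2 to 5 called members.

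Among genes higher in old muscle, Tfrc was at 319, 425, 568 and 349 CPM in old and 45.5, 51.8, 38.5 and 31.9 in young libraries. The groups lay far apart, and the log2 fold change was 3.31 ± 0.44 (SE), adjusted p = 2.75e-05. Mkl1, a coactivator of serum response factor that links actin to transcription, had the smallest p of all genes, at 73.4, 62.7, 68.5 and 80.7 CPM against 10.4, 10.3, 16.2 and 13 (log2 fold change 2.52, adjusted p = 2.66e-09). Tnfaip2, a gene induced by tumour necrosis factor, was 4.37-fold higher with a narrow spread (113 to 171 against 30.8 to 41.2 CPM). Ccnd1, the cyclin that drives entry into the cell cycle, was at 5.72, 8.9, 16.4 and 11.3 CPM against 1.61, 2.23, 1.66 and 2.04, a 5.56-fold difference. Of 30 genes of cell division, 1 was called: Hmgb2, a chromatin protein, which was lower, and whose call was lost without old library 7 (adjusted p = 0.0644), old library 8 (0.0795) or young library 2 (0.0813). Mki67, a marker of dividing cells, was at 0.775 ± 0.533 CPM in old and 0.46 ± 0.309 in young muscle.

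Apelin and its receptor were both higher in old muscle. Apln, a peptide hormone made by muscle and endothelium, was at 9.46, 6.26, 20 and 10.1 CPM in old and 1.81, 1.49, 0.505 and 0.862 in young libraries (log2 fold change 3.26, adjusted p = 0.00215, not called by limma voom at 0.154). Aplnr, its receptor on endothelial cells, was at 26.5, 28.5, 24.8 and 25.3 CPM against 11.4, 7.02, 6.42 and 10.2 (1.58, adjusted p = 0.00505). Neither gene overlapped between the ages. Aplnr was the 1 called gene of 16 endothelial markers, whose median was 0.0485, and the vessel markers Pecam1 (80.5 ± 15.5 and 82.1 ± 19.5 CPM) and Cdh5 (105 ± 13.1 and 90.7 ± 28.6) were not called.

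Krt8 and its partner Krt18, the keratin pair of simple epithelia, were higher in old muscle with a wide spread. Krt8 was at 5.84, 68.5, 19.9 and 9.96 CPM in old and 1.36, 1.75, 0.361 and 0.549 in young libraries. Old library 7 held the top value, and the log2 fold change of 4.65 (adjusted p = 0.00217) was 3.52 without it. Krt18 was at 15.6, 163, 46.2 and 34.9 CPM against 8.59, 7.02, 8.44 and 2.43. Its log2 fold change was 3.29 (adjusted p = 0.0349), and 2.28 without old library 7 (adjusted p = 0.19). The call of Krt18 was also lost without old library 8 (0.0517) or any 1 of the young libraries (0.0765 to 0.107). Of the 12 genes listed for keratinocytes and glands, 5 were tested, with Krt10, Cdh1 and Sfn beside this pair. All 5 had log2 fold changes above 0, and 2 were called. Among the members not tested, the epidermal keratins Krt5, Krt14 and Krt1 and the epithelial adhesion gene Epcam had 0 counts in all 8 libraries. Dsp had 10 counts over the old and 4 over the young libraries, Lor 7 and 0, and Krtdap 8 and 6. Chrna1, the acetylcholine receptor subunit that rises when muscle loses its nerve, was highest in the same old library 7, at 81.4 CPM beside 27.2 to 56.8 in the other old and 18.9 to 24.5 in the young libraries. The groups did not overlap for Chrna1, and the gene was not called (log2 fold change 1.26, adjusted p = 0.0758), although it was called without old library 9 (0.0468).

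Genes of the neuromuscular junction gave 2 calls of 24 (8.33%, beside 3.51% of all genes tested), both higher, with a median of 0.355. Lrp4, the muscle receptor for nerve-derived agrin, was at 24.3 ± 4.02 and 13.2 ± 4.33 CPM, and Colq, the collagen tail that anchors acetylcholinesterase, at 16.2 ± 6.57 and 7.18 ± 0.907. Both calls were fragile. That of Lrp4 was lost without old library 6 (adjusted p = 0.103), old library 9 (0.0976) or young library 1 (0.154), 2 (0.0966) or 4 (0.0743). That of Colq was lost without old library 7 (0.223), old library 9 (0.0515) or any 1 of the young libraries (0.0605 to 0.117). Of 14 Schwann cell and myelin genes, 1 was called (7.14%), the list's median was 0.0805 and 8 log2 fold changes were above 0. The 1 called, Erbb3, a neuregulin receptor, was lower at 8.64, 5.1, 4.92 and 4.21 CPM against 26.9, 17, 14.4 and 11.7 (log2 fold change -1.61, adjusted p = 0.00269). The myelin gene Mbp (4.17 ± 1.06 and 4.27 ± 1.28 CPM) was not called.

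Calls among growth factor genes included a ligand, a binding protein and receptors. Igfbp5, a secreted protein that binds insulin-like growth factors, was at 1153, 968, 676 and 1312 CPM in old and 185, 394, 327 and 352 in young libraries. All old values were above all young ones, by a log2 fold change of 1.71 (adjusted p = 0.00925). The ligand gene Igf1 was at 15.9, 13.9, 16.4 and 16 CPM against 5.94, 7.71, 8.73 and 6.66 (1.10, adjusted p = 0.0406), and its call was lost without any 1 of the 8 libraries (0.0577 to 0.129), although the groups did not overlap. The receptor gene Igf1r went the other way, at 21.3, 22.6, 17.4 and 24.9 CPM against 51.9, 54.2, 55.9 and 34.9 (-1.19, adjusted p = 0.000225). Acvr1, a receptor for bone morphogenetic proteins, was 1.8-fold higher. Of 30 genes of growth factors and myostatin, 4 were called higher and 1 lower, beside 1.72% and 1.79% of all genes tested. The list's median was 0.29.

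Matrix genes leaned upwards in old muscle, and the 3 called were collagen genes. Col15a1, a collagen that ties the basement membrane to the stroma, was at 57.1, 49, 74.1 and 76.5 CPM in old and 16.4, 16.5, 18.8 and 21.5 in young libraries (log2 fold change 1.81, adjusted p = 0.00105). Col4a1 and Col4a2, the main chains of its network collagen, were 2.07-fold and 1.81-fold higher (adjusted p = 0.0204 and 0.0237). The calls of both were lost without old library 8 (0.0799 and 0.0864), old library 9 (0.0555 and 0.0706), young library 2 (0.076 and 0.083) or young library 4 (0.0732 and 0.0895). The fibrillar collagens Col1a1 (190 ± 18.4 and 134 ± 40.9 CPM) and Col1a2 (230 ± 28.5 and 186 ± 54.9) were not called. Other collagens not called had log2 fold changes near the 0.860 of Col4a2 or above it. These were Col6a3 (1.09, adjusted p = 0.0537), Col6a2 (0.861, 0.207), Col5a1 (0.855, 0.249) and Col3a1 (0.840, 0.341). Col18a1 was not called either (0.604, 0.407). The fit of the 8 libraries alone called 13 matrix genes higher and 0 lower. Of 29 matrix genes, 3 were called higher, the median was 0.525 and 24 log2 fold changes were above 0, and the summed level was 2750 to 3060 CPM in old and 1470 to 2350 in young libraries. Without overlap between the groups, 12 of the 29 were above and 1 below, beside 8.34% and 8.18% of all genes tested.

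Markers of fibro-adipogenic progenitors, cells that make this matrix, were called in 10%, and those of smooth muscle and pericytes in 21.4%. The share over all genes tested was 3.51%. Of 20 markers of fibro-adipogenic progenitors, 2 were called higher: Hic1, a transcription factor of quiescent mesenchymal cells (2.23-fold), and the chemokine gene Cxcl14, at 55.3 ± 8.95 and 25 ± 2.28 CPM, whose call was lost without any 1 of the 8 libraries (0.0579 to 0.121). The defining marker Pdgfra was at 19.5 ± 2.43 and 19.2 ± 5.44 CPM, and the list's median was 0.0956. Of 14 genes of smooth muscle and pericytes, 3 were called higher (median 0.399). Smtn, a smooth muscle cytoskeletal protein, was 2.09-fold higher (115 to 127 against 49.6 to 63.7 CPM, adjusted p = 5.11e-05). Cspg4, a pericyte marker, and Notch3, a receptor of mural and satellite cells, were called with less margin: that of Cspg4 was lost without old library 8 (0.12), old library 9 (0.0743) or young library 2 (0.0793), 3 (0.0825) or 4 (0.0934), and that of Notch3 without any 1 of the 8 (0.0569 to 0.172). Myh11, the smooth muscle heavy chain, was at 23.9 ± 3.65 and 25.8 ± 4.21 CPM.

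Genes of cholesterol and lipid synthesis were called in both directions, with 15 log2 fold changes above 0 and 7 below. Scd2, a fatty acid desaturase, was 2.51-fold higher. Fdft1, the first enzyme committed to sterol synthesis, was lower at 54.8, 70.1, 58.1 and 69.2 CPM in old against 149, 148, 123 and 115 in young libraries (log2 fold change -1.09, adjusted p = 0.000182). The groups did not overlap for these genes. The regulators Srebf1 (adjusted p = 0.0417) and Srebf2 (0.0474) were called higher, at 59.9 ± 12.7 and 36.2 ± 5.55 CPM and at 32.9 ± 2.52 and 19.2 ± 4.2. The call of Srebf2 held without young library 3 and was lost without any 1 of the other libraries (0.0726 to 0.165), and the call of Srebf1 was lost without old library 6 (0.184), 7 (0.0684) or 9 (0.0631) or young library 2 (0.123), 3 (0.0954) or 4 (0.127). In all, 4 of 22 listed genes were called higher and 1 lower (median 0.382), beside 1.72% and 1.79% of all genes tested. The summed level of the list overlapped between the ages, at 522 to 645 CPM in old and 595 to 637 in young libraries.

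In the main fit no listed marker of regenerating fibres was called at day 35, and 1 gene of the satellite cell list was. Embryonic Myh3 was at 19.3, 1.11, 21.9 and 3.48 CPM in old and 14.7, 1.44, 13.3 and 1.1 in young libraries. Each age had a high and a low pair of libraries, and the groups overlapped (log2 fold change 0.59 ± 0.99 SE, adjusted p = 0.866). Neonatal Myh8 was at 28.7 ± 17.6 and 22.8 ± 4.63 CPM, with old library 6 high at 54.8. All 18 genes of the regenerating list had log2 fold changes above 0, with a median of 0.604, and 0 were called. Pax7, which marks satellite cells, was at 6.49 ± 0.825 and 4.82 ± 1.33 CPM (adjusted p = 0.583), and Myog, a factor of their differentiation, at 6.62 ± 2.24 and 9.1 ± 4.41. Of 20 satellite cell and myogenic genes, the 1 called was Notch3, which was also counted among the smooth muscle and pericyte genes. The fit of the 8 libraries alone called 4 of the 20 higher and 2 lower. Of 20 genes of mature fast fibres, 0 were called (median -0.0835), and of 13 of slow fibres also 0. The slow list had a median of 1.45, or 1.02 with genes at 0 counts in a group set at their bound of 3 counts over that group's libraries or left out when both groups were at or under it. The first of these medians was 0.443 without old library 6, 2.32 without young library 1 and 0.83 by limma voom.

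Senescence genes were mixed. Cdkn2a, the gene of the cell cycle inhibitor p16, was at 9.15, 2.7, 4.92 and 5.91 CPM in old and 4.91, 3.3, 3.82 and 7.52 in young libraries, and the groups overlapped (log2 fold change 0.22 ± 0.45 SE, adjusted p = 0.898). Cdkn1a, the gene of p21, was at 42.4 ± 6.97 and 33.7 ± 12.5 CPM and was not called either. Of 33 senescence and secretory genes, Igfbp5 and the chemokine gene Cxcl12 (1.73-fold, adjusted p = 0.0048) were called higher and the inhibitor gene Cdkn1b lower (1.81-fold, adjusted p = 0.00132), and the list's median was 0.406. Trp53, the gene of p53, was at 16.3 ± 1.18 and 18.5 ± 1.87 CPM. Mdm2, whose product removes p53, was at 72.1 ± 1.23 and 63.4 ± 4.64 (adjusted p = 0.519). Of 31 genes of p53 and its targets, Zmat3, an RNA-binding protein, was called higher (1.76-fold), and Btg2 and Sesn1 lower (3.1-fold and 2.53-fold), with a median of -0.168.

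Each immune list gave 0 or 1 call. A single call was 2.86% of the interferon, 4.17% of the chemokine and cytokine, 14.3% of the neutrophil and 8.33% of the B and plasma cell genes. The share over all genes tested was 3.51%. Of 35 interferon response genes, 34 had log2 fold changes above 0 (median 0.498, beside 0.0121 over all genes tested). The fit of the 8 libraries alone called 7 of the 35 higher and 0 lower. In the main fit the 1 called was the GTPase gene Ifi47, at 3.41 ± 1.98 and 1.23 ± 0.545 CPM. Its call was lost without old library 7 (adjusted p = 0.263), old library 9 (0.0681) or young library 2 (0.145), 3 (0.139) or 4 (0.0577). Of 23 macrophage genes 0 were called (median 0.647, or 0.329 without old library 7), with the pan-macrophage gene Adgre1 at 3.73 ± 1.16 and 2.95 ± 0.805 CPM. Of 7 neutrophil genes, the 1 called was Csf3r, the receptor for granulocyte colony stimulating factor, at 1.78, 2.58, 1.62 and 1.38 CPM against 0.387, 0.797, 0.433 and 0.392 (adjusted p = 0.00231, and 0.104 by limma voom). The median of the 7 was 1.83, or 1.58 with the gene at 0 counts set at its bound. Of 12 genes of B and plasma cells, the 1 called was the immunoglobulin gene Ighg2c (2.57 ± 2.05 and 0.335 ± 0.241 CPM). Its log2 fold change of 2.96 was 2.31 without old library 9 (adjusted p = 0.131), and the call was also lost without old library 7 (0.0516) or young library 1 (0.0958), 2 (0.118) or 4 (0.06). Igkc, the kappa light chain gene, was at 10.9 ± 10.4 and 2.71 ± 4.11 CPM and was not called. Antigen presentation (18 genes), complement (19) and T and NK cells (23) had 0 calls, and C3, the central complement gene, was at 48.8 ± 37.9 and 75.3 ± 48.9 CPM.

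Markers of tissue that could be carried along in dissection were measured in the same libraries. Of 7 erythroid genes 0 were called, with a summed level of 144 to 1080 CPM in old and 88.3 to 323 in young libraries. The top value was again in old library 7, where Hba-a1, an alpha globin gene, stood at 420 CPM beside 50.2 to 65.9 in the other old libraries. The part of what sets old library 7 apart in the keratin values above was not tested beyond leaving it out. Of 12 tendon, 15 adipocyte and 7 cartilage and bone genes, 0 were called. The adipocyte list had a median of -0.752 (-0.447 without young library 4) while its summed level was higher in old muscle (3950 to 6370 against 2470 to 3720 CPM). Most of that sum was Car3, a carbonic anhydrase that muscle also makes, and Adipoq, the fat cell hormone gene, was at 3.44 ± 2.43 and 6.15 ± 3.19 CPM. Heat shock and unfolded protein genes (24) had 0 calls and a median of 0.00512. Over the 15 gene lists with no call, which hold 246 genes, 18 genes had an unadjusted p under 0.05 in edgeR, 7 were called by DESeq2 and 2 by limma voom. The fit of the 8 libraries alone called 2 regenerating and 2 heat shock genes higher and 2 mature fast fibre genes lower. It called 1 adipocyte gene higher and 2 lower. In that fit 1 gene each was higher among slow fibre, cartilage and bone, macrophage and antigen presentation genes, and 1 sex-linked gene was lower.

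The same ages were also compared without injury, for reference. These uninjured columns carry the name PBS and that of the 35-day set. In uninjured muscle 2302 genes (13.4%) were called, 992 higher and 1310 lower in old muscle. Of the 601 genes called at day 35, 342 were also called there in the same direction and 0 in the opposite one, which is 56.9% of the day 35 list and 14.9% of the uninjured list. A further 259 were called at day 35 and not in uninjured muscle, and 1960 the other way round. In these 1960 the median size of the log2 fold change was 0.811 in uninjured muscle and 0.3 at day 35, and the choice of genes by their calls itself makes the second smaller. The sign was the same in both settings for 580 of the 601 (96.5%), beside 65.3% of all genes tested. Across genes, which are not independent replicates, the 2 sets of log2 fold changes had a Pearson correlation of 0.323 over all genes, and this is given as a description. The 2 comparisons share no library, but both came from the same fit. Their columns also share numbers, and the labels do not state whether they share animals, so the 2 may not be independent.

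Many leading genes differed by age with and without injury. Pdk4 was at 247 ± 80.6 and 4922 ± 1805 CPM in old and young uninjured muscle (log2 fold change -4.32), beside -4.92 at day 35. Acot2 (-3.05 uninjured and -2.89 at day 35), Mkl1 (2.39 and 2.52), Tnfaip2 (2.13 and 2.13), Fbxo32 (-2.25 and -2.18), Cep85l, a centrosomal protein gene (-2.32 and -2.30), and Igf1r (-1.14 and -1.19) were called in both. Abtb2, which encodes a BTB domain protein (2.10 and 2.00), and Cited4, a transcriptional coactivator gene (1.97 and 1.98), were also called in both.

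**Figure D4:**
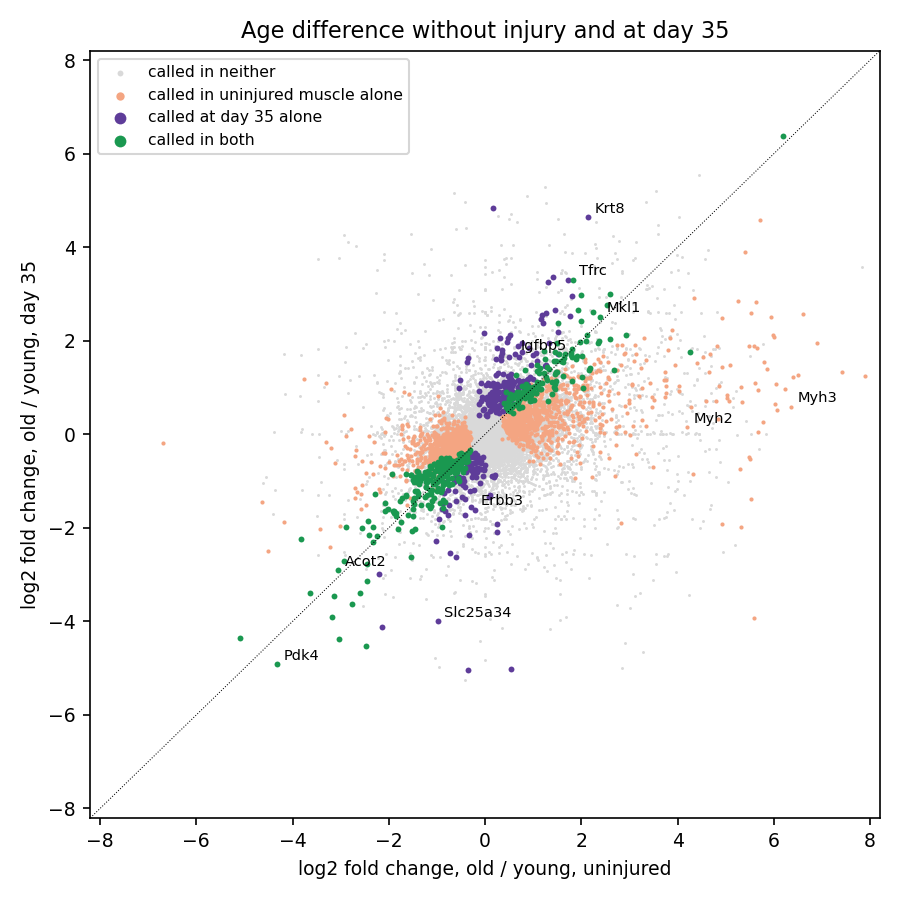
Each point is 1 of 17121 genes, with the log2 fold change of old over young uninjured muscle on the x axis and that at day 35 on the y axis, and the dotted line marks equal values. The 342 genes called in both are green, and those called in uninjured muscle alone, such as Myh3 at 6.35 and 0.59, are orange and were chosen for having no call at day 35.

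Other genes had unlike values in the 2 settings, but a test of the difference itself called 0 genes in edgeR. The lowest adjusted p was 0.0609, 1690 genes (9.87%) had an unadjusted p under 0.05, DESeq2 called 9 and limma voom 1, and without young uninjured library 4 edgeR called 40. No gene is named here as changed between the settings, and the values that follow are descriptions, with the adjusted p of the difference from edgeR. Col15a1 was at 14 ± 3.61 and 11 ± 4.68 CPM in old and young uninjured muscle, a log2 fold change of 0.34 beside 1.81 at day 35 (adjusted p = 0.347). Slc25a34 was at 4.29 ± 2 and 8.49 ± 7.23 CPM, -0.98 beside -3.99 (adjusted p = 0.347). Erbb3 was at 5.94 ± 3.01 and 6.96 ± 1.51 CPM, -0.22 beside -1.61 (adjusted p = 0.347). Tfrc had 1.82 beside 3.31 (adjusted p = 0.422), and Clock 0.24 beside 1.06 (adjusted p = 0.357).

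Myh3, Myh8, Myh2 and Cdkn2a had larger age differences without injury than at day 35, and the difference was not called for any of the 4. Myh3 was at 164 ± 185 and 1.97 ± 0.944 CPM in old and young uninjured muscle, a log2 fold change of 6.35 beside 0.59 at day 35 (adjusted p = 0.308). Myh8 had 2.61 beside 0.33 and Myh2, of an oxidative fast fibre type, 4.20 beside 0.16 (adjusted p = 0.373 and 0.351), with SDs of 94.9 around a mean of 87.5 and of 247 around a mean of 137 CPM in old uninjured muscle. Cdkn2a was at 0.572 ± 0.306 and 0.112 ± 0.0907 CPM without injury, called there at 2.38 beside 0.22 at day 35 (adjusted p = 0.448). It was at 5.67 ± 2.68 and 4.89 ± 1.88 at day 35, where both ages stood above their uninjured libraries.

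**Figure D5:**
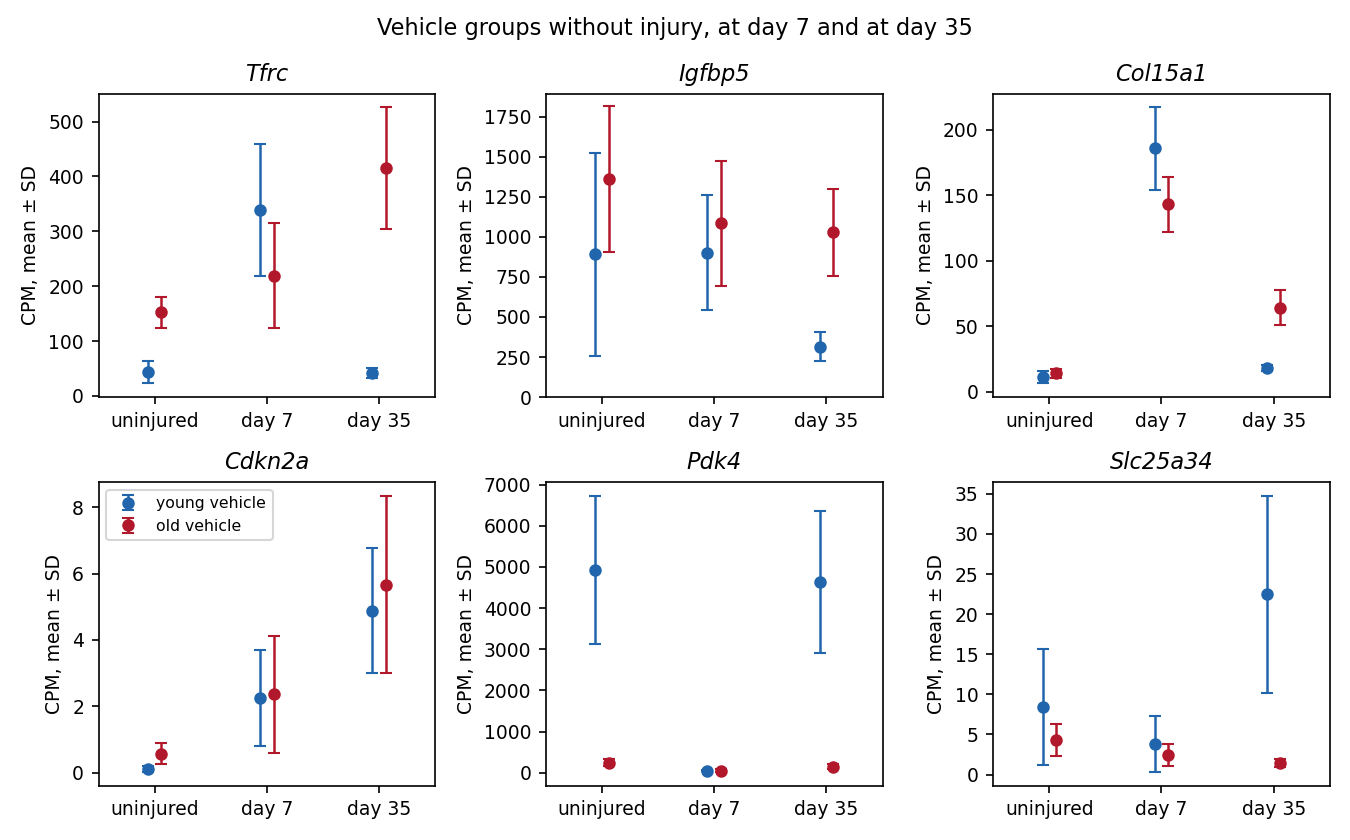
Mean CPM with SD as error bars (n = 4 libraries) of 6 genes in young (blue) and old (red) vehicle muscle, uninjured, at day 7 and at day 35, on linear axes with a scale of their own. Tfrc at day 35 stands at 41.9 CPM in young and 415 in old muscle beside 339 and 219 at day 7, and Pdk4 at day 7 is near 50 in both ages.

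The day 7 libraries place these levels in the course of repair. Mean Tfrc was 43.2 CPM in young muscle without injury, 339 at day 7 and 41.9 at day 35, and in old muscle 152, 219 and 415. The young mean at day 35 was close to that of uninjured young muscle, and the old mean was above that of uninjured old muscle. Col15a1 was at 11, 186 and 18.3 CPM in young and 14, 143 and 64.2 in old muscle, and Apln at 0.67, 26.4 and 1.17 in young and 1.64, 30.2 and 11.5 in old muscle. For both genes, and in both ages, the mean at day 35 lay between those of day 7 and of uninjured muscle. Igf1 was at 6.5, 138 and 7.26 CPM in young and 6.2, 157 and 15.6 in old muscle. Pdk4 was at 50.5 CPM in young and 54.4 in old muscle at day 7, when Fbxo32 was at 56.1 and 52.6. These means across days are descriptions, with no test of the course.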

How the data were processed

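RNA of tibialis anterior muscle was sequenced in 32 libraries. The authors deposited 1 table of counts per gene and library, whole numbers with no normalization, with symbols, coordinates and gene lengths. HISAT2 and the mm10 genome are named in the submitters' processing notes. Which HISAT2 version, counting program, annotation release and strand setting the authors used is not given in the sources used here, so genes that overlap others or have close paralogs are uncertain. All columns of counts were used (0 left out). Column names give group and number but do not match the numbers of the sample titles, so libraries are named by group and column number.

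Genes were kept by filterByExpr (17121 of 54532), scaled by TMM factors and fitted with the robust quasi-likelihood model of edgeR 4.0.16 (R 4.3.3) to all 32 libraries, with 1 mean per group. The ages were compared at day 35 and in uninjured muscle, as was the difference between the 2. P-values were adjusted by Benjamini-Hochberg over all genes tested, and calls used 0.05. CPM values are scaled by TMM. The 95% confidence interval of a log2 fold change was ±0.602 at the median over genes. No 2 libraries of a group agreed within sampling noise (chi-square per degree of freedom of 12.6 or more). The model was tested on simulated data. The alternatives were RLE factors, library size alone, no filter, a filter of 1 CPM in 4 libraries, DESeq2 1.42.0, limma voom (limma 3.58.1), the compared libraries alone and each library left out.

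Named genes were the 12 largest differences each way among called genes of at least 5 CPM whose groups did not overlap and whose call held with every library left out, up to 5 called members and the first 2 of each gene list, and a fixed set of fibre, senescence, p53, immune and sex genes. Predicted genes, pseudogenes and antigen receptor segments were left out of the largest differences, and some genes that the rule would name are not reported here. The 10 genes of smallest p, and Foxo3, Foxo1, Mstn, Ppargc1b, Acadm, Hadha, Mt1, Car3, Acadl, Cpt1b, Cpt2, Fbxo30 and Traf6, were named after their values were seen, as were the genes shown for their promoters. The comparison and the lists were chosen with earlier results of these data known. Promoter windows came from RefSeq (GRCm38.p6), and motifs were searched on both strands with Python 3.11.15.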

Additional observations from a re-analysis of the deposited data

Results flagged for a closer look

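In 312 sets of 4 libraries (156 named genes in each age at day 35), 21 held 1 library that stood apart from the other 3 by more than Dixon's 95% limit. Chance gives this in about 1 in 20 sets. The library was young library 3 in 5 sets, old libraries 6, 7 and 9 in 4 each, young library 1 in 2, and old library 8 and young library 2 in 1 each.

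Old library 7 was highest for the globin genes Hba-a1 (420.41 CPM) and Hba-a2 (35.311), for Colq (26.038) and for Trim63 (321.48). Old library 9 was highest for Per1 (60.173), for S100a9, a neutrophil protein gene (1.3768), and for Zfand5, which activates the proteasome (396.67), and lowest for Acadm (222.63). Old library 6 was highest for Myh8 (54.813), for the chemokine gene Ccl3 (0.57163) and for Acan, a cartilage gene (0.063515), and lowest for Fkbp5 (44.841). Ccl3 and Acan had 0 counts in the other old and in all young libraries. Old library 8 was the 1 library with counts for Myh7 (0.14068 CPM).

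Young library 3 was highest for Per1 (217.08), Klf2 (44.095), Ppargc1b (9.8871), Igkc (8.8045) and the immediate early gene Fosb (1.299). Young library 1 was highest for Pecam1 (111.25) and the cartilage gene Col2a1 (0.32282), and young library 2 for Csf3r (0.79731).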

How the results depend on the processing

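The day 35 count of 601 called genes (295 higher, 306 lower) was 588 with RLE factors, 504 with library size alone, 429 without a filter, 631 with the stricter filter and 468 with limma voom. DESeq2 called 885, 482 of them higher. The 8 libraries alone gave 1922 (932 higher, 990 lower). Leave-one-out counts were 335 to 452, with 146 to 217 higher and 186 to 260 lower. With library size alone 58.5% of the calls were higher, beside 49.1%. The count of 0 for the difference between day 35 and uninjured muscle was 2 with library size alone, 1 without a filter, 9 with DESeq2, 1 with limma voom, 1 with the 16 libraries alone and 0 to 40 with single libraries left out. It was 2 without young day 35 library 1, 3 without old uninjured library 9, 1 without young uninjured library 2 and 40 without young uninjured library 4. The 2 ages at day 35 share no column numbers, so no paired fit of that comparison was possible. Uninjured and day 35 columns share numbers, and a fit with the number as a replicate block called 7 genes. Same-numbered libraries deviated together with r of 0.0104 to 0.175 in old and -0.0562 to 0.247 in young muscle, above 0.1 in 5 of 8 pairs, and 6 of the 8 day 35 libraries correlated best with their own number. As no label states a pairing and not every pair was above 0.1, the numbers were not taken to pair the libraries.

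Of the 80 named genes called, 0 changed sign and 54 kept the call in every alternative. Of the 76 not called, 20 changed sign in at least 1. With limma voom these were Myh1 (0.09519), Ndufa2 (0.003048) and Tnmd (-0.06854). With libraries left out, log2 fold changes ran from -0.1152 to 0.5005 for Cdkn2a, -0.1659 to 0.183 for Csf1r, -0.2406 to 0.1041 for Fbxo30, -0.1247 to 0.5588 for Fos, -0.07813 to 1.903 for Hba-a1, -0.07418 to 0.2076 for Ly6a, -0.2008 to 0.1284 for Mbp, -0.1727 to 0.1022 for Mstn, -0.06613 to 0.1698 for mt-Nd1, -0.03834 to 0.09201 for Myf5, -0.4792 to 0.1908 for Myh1, -0.4426 to 0.7959 for Myh2, -0.1951 to 0.5073 for Myh8, -0.547 to 0.1548 for Ndufa1, -0.1816 to 0.2568 for Ndufa2, -0.1558 to 0.1604 for Pdgfra, -0.1591 to 0.1536 for Pecam1, -0.0487 to 0.8711 for Plin1, -0.1576 to 0.5125 for Tnmd and -0.1621 to 0.002668 for Traf6. The cause of these changes was not tested. At these depths, genes of a few counts, such as Myh7 and Acan, cannot show a difference.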

Other observations

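Several called genes belong to none of the groups described above. Zfand5, which activates the proteasome, was at 364, 368, 367 and 397 CPM in old and 1124, 1275, 987 and 860 in young libraries (log2 fold change -1.51, adjusted p = 7.83e-06). Cat, the gene of the peroxisomal enzyme catalase, was at 35.6, 60.6, 49.7 and 46.8 CPM against 172, 144, 135 and 134 (-1.60, adjusted p = 8.45e-07). Hist1h1c, a linker histone gene, was 4.06-fold lower in old muscle, and Gadd45g, a gene of the DNA damage and stress response, 5.82-fold lower. None of these overlapped between the ages, and Zfand5, Cat and Hist1h1c were also called lower in uninjured old muscle.

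Among the genes higher in old muscle, Podxl, which encodes a sialomucin of endothelium and podocytes, was at 49.7, 62.3, 55.5 and 64.8 CPM against 19.6, 18.9, 22.1 and 23.2 (1.47, adjusted p = 8.72e-06). Tspan9, a tetraspanin gene, was 2.94-fold higher, and Efr3b, which anchors a lipid kinase at the plasma membrane, was 5.38-fold higher. Rrad, a small GTPase gene that restrains calcium channels, was at 11, 33.6, 26.6 and 5.02 CPM against 2.78, 0.85, 4.26 and 1.88, with an adjusted p of 0.00291, and 0.0585 in a fit of the 8 libraries alone. Aif1l, an actin-binding protein gene, was at 13.2, 43.8, 29.1 and 12.6 CPM against 5.49, 2.82, 5.99 and 1.88. For both genes old library 7 was the highest, as it was for Krt8, Krt18 and Chrna1.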
